A study of Rattus norvegicus with 4 samples.

Results

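Cells of the rat choroid plexus sorted by flow cytometry (FACS) for the cotransporter NKCC1, in a library labelled as epithelial cells, were compared with the whole tissue. The sorted cells were set against the mean of the male and the female whole-tissue library, gene by gene, in TPM, a transcript level corrected for gene length and scaled to 1 total in every library. A gene was included at 0.5 TPM or above in the sorted cells or in both whole-tissue libraries, which gave 13750 of the 32883 gene IDs in the tables. Of the IDs not at this level in both whole-tissue libraries, 116 had 0.5 to 0.6 TPM in the sorted cells and were included, and 133 had 0.4 to 0.5 TPM there and were not. The 13 mitochondrially encoded genes were removed and the TPM values rescaled, so that all TPM below are free of them. The log2 ratio is log2 of (TPM + 1) in the sorted cells minus log2 of (mean whole-tissue TPM + 1), a scale that understates the difference of genes near 1 TPM. A gene is called higher or lower in the sorted cells where its sorted value lay outside both whole-tissue values and the log2 ratio was at least 1 in size, a 2-fold difference.

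All rats were Sprague Dawley rats 9 weeks of age. The choroid plexus of 10 male rats was minced, digested in collagenase at body temperature, stained with an antibody to an outer part of NKCC1 (SLC12A2), sorted and sequenced as 1 pooled library. Whole choroid plexus was pooled from 5 male rats into 1 library and from 5 female rats into another, and went into RNAlater without digestion or sorting. The rats were anaesthetized with xylazine and ketamine before tissue was taken, and the labels give no transgene or experimental treatment. There was 1 library per group and no replicate, so no difference has a replicate check, no test was made, and the spread between animals is unknown. The difference between the male and the female whole tissue is the only spread between libraries at hand, and it includes sex. Digestion and staining came only with sorting, so effects of the procedure and of the selection of cells cannot be told apart. In bulk RNA, fewer cells of a type and less RNA per cell cannot be told apart either.

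The choroid plexus hangs in the brain ventricles as fronds of a single epithelial layer around a core of leaky capillaries, fibroblasts and resident macrophages. The epithelium secretes cerebrospinal fluid (CSF), for which it relies on the Na+/K+-ATPase, NKCC1, bicarbonate transporters, carbonic anhydrases and aquaporin 1, and it releases proteins such as transthyretin. Its cells carry tufts of cilia and many mitochondria. Macrophages sit on the ventricular surface of the epithelium and in the stroma, and show the receptor CSF1R and the proteins of antigen presentation.

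Expected counts, the read estimates behind the TPM, summed to 23873318 in the sorted cells, 28324976 in the male and 25376480 in the female choroid plexus, and 3 counts, the floor used here, were 1.26e-05%, 1.06e-05% and 1.18e-05% of these totals. Transthyretin (TTR, ENSRNOG00000016275), the thyroid hormone carrier of CSF, took 17.5% of the counts in the sorted cells (95% Wilson interval 17.50 to 17.53%), 8.85% in the male (8.84 to 8.86%) and 11.5% in the female choroid plexus (11.54 to 11.56%). Intervals and floors of this kind cover the error of counting and no other. On the TPM scale without mitochondrially encoded genes TTR held 41.5%, 26.0% and 30.5% of the total, and the 10 highest genes of each library together 52.7%, 35.2% and 40.3%. As TPM values share 1 total, a larger share for TTR lowers the values of the other genes. Mitochondrially encoded genes had 6.16%, 8.37% and 6.29% of the deposited TPM in the sorted, male and female libraries.

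Most genes had a lower TPM in the sorted cells than in whole tissue. The median log2 ratio was -0.54 over the 13750 genes, and the middle 50% lay between -0.95 and -0.05. The sorted value was below both whole-tissue values for 9985 genes (72.6%), above both for 2735 (19.9%) and between them for 1030. At 2-fold, 687 genes (5.00%) were called higher and 3075 (22.4%) lower. Genes included only through their level in the sorted cells are part of these counts. After the log2 ratios were centred on their median the split turned, with 1518 genes higher (11.0%) and 705 lower (5.13%). Without the 10 highest genes of each library the median moved to -0.23. Ratios of gene groups are therefore given both as they are and relative to the median of all genes.

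The sorted cells stood further from whole tissue than the male and female whole tissues stood from each other. The median size of the log2 ratio was 0.67 between sorted cells and whole tissue, and 0.21 between the female and the male library, or 0.45 and 0.14 after centring each. Between the female and male libraries 115 genes (0.836%) were at least 2-fold apart. In all, 651 genes reached 0.5 TPM in both whole-tissue libraries but not in the sorted cells, and 340 reached it in the sorted cells alone. Names, which come from the supplementary lists of the study, were at hand for 2381 of the 13750 genes. These lists hold largely genes of the whole choroid plexus, and 13 of the 340 genes had a name. Among named genes 62 (2.60%) were called higher and 553 (23.2%) lower, and at any fold 451 (18.9%) lay above both whole-tissue values and 1761 (74.0%) below both. Of the 687 genes called higher, 625 stayed without a name.

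**Figure D1:**
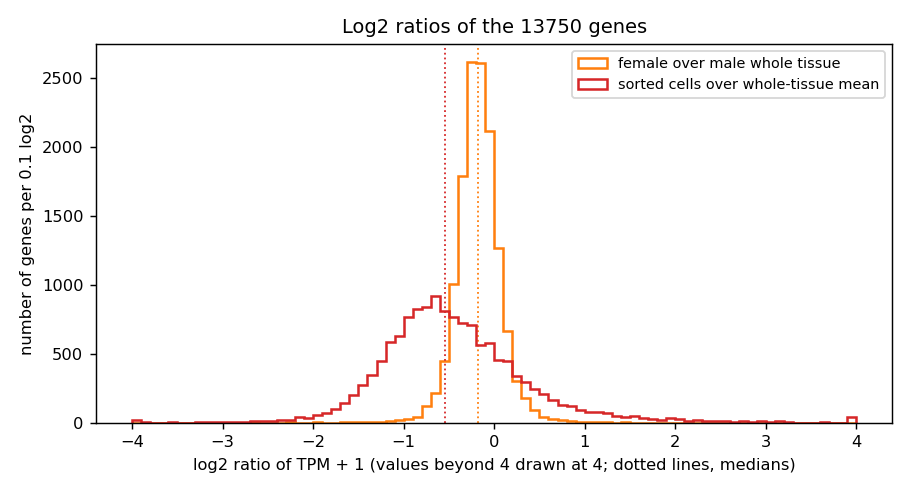
Number of genes (y axis) by log2 ratio of TPM + 1 (x axis) for the 13750 genes, with the sorted cells over the whole-tissue mean in red and the female over the male whole tissue in orange; values beyond 4 are drawn at 4. The red distribution is centred at -0.54 and is broader than the orange one, which is centred at -0.18.

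TTR, an epithelial identity gene, had the highest TPM of the sorted library among named genes. The 10 named genes with the highest TPM there included TTR, CST3, PTGDS, MDK, IGFBP2, CLU and TF, all secreted proteins, and BSG, the surface glycoprotein basigin. TTR had 415242 TPM in the sorted cells, 260358 TPM in the male tissue and 305083 TPM in the female tissue, a log2 ratio of 0.55. Folate receptor alpha (FOLR1, ENSRNOG00000019902), which carries folate across the epithelium, had 2904 TPM in the sorted cells, 2246 TPM in the male tissue and 2234 TPM in the female tissue (0.37). These were the 2 of the 22 epithelial identity genes that lay above both whole-tissue values.

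The other epithelial identity genes did not share this direction. The serotonin receptor HTR2C (ENSRNOG00000030877) had 529 TPM in the sorted cells, 739 TPM in the male tissue and 605 TPM in the female tissue, with a log2 ratio of -0.34. For KCNJ13 (ENSRNOG00000016057), the inwardly rectifying channel Kir7.1, the values were 730.2, 1497 and 1275 TPM (-0.92). The water channel AQP1 had 732 TPM against 787 and 712 TPM and lay between the whole-tissue values. Both HTR2C and KCNJ13 were below the 2 whole-tissue values, and neither was 2-fold apart. VAT1L, a relative of the synaptic vesicle protein VAT1, had 334 TPM against 1185 and 978 TPM, and PRR32 had 195 TPM against 576 and 572 TPM, the lowest ratios of the list at -1.69 and -1.56. The homeobox factors MSX1 (-1.11), LMX1A (-1.09) and OTX2 (-1.02), the prolactin receptor PRLR (-1.09) and the keratin KRT8 (-1.02) were called lower as well. In all 19 of 22 genes lay below both whole-tissue values, 7 were called lower and 0 higher, against 72.6%, 22.4% and 5.00% of all genes. The list median was -0.67, or -0.13 relative to all genes, near the middle of the transcriptome. Once centred, 1 of 22 was called higher and 2 lower, against 11.0% and 5.13% of all genes.

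The gene of the sorting handle was not higher in the sorted cells. SLC12A2 (ENSRNOG00000015971), which encodes NKCC1, had 160.2 TPM in the sorted cells, 292 TPM in the male tissue and 253 TPM in the female tissue, a log2 ratio of -0.76. It was below both whole-tissue values by less than 2-fold, and within the middle 50% of all genes.

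Leukocyte genes went the opposite way and were the named genes with the highest ratios. CD74 (ENSRNOG00000018735), the invariant chain that guides MHC class II molecules, had 2724 TPM in the sorted cells, 376 TPM in the male tissue and 223 TPM in the female tissue, 9.10-fold the whole-tissue mean. CSF1R (ENSRNOG00000018414), the receptor for the macrophage growth factor CSF1, had 84.3 TPM against 18.0 and 11.4 TPM, 5.73-fold. Lysozyme 2 (LYZ2), a bacteriolytic enzyme of myeloid cells, had 2066 TPM against 511 and 341 TPM, 4.85-fold. For each of the 3 genes the sorted cells stood far above both whole tissues, and the female value was below the male value. Lower macrophage transcripts showed the same order. The adhesion receptor ADGRE1, known as F4/80, had 24.6 TPM against 7.58 and 4.20 TPM. HCAR2, the niacin receptor, had 19.4 TPM against 0.709 and 0.438 TPM (3.69), and was included only through its level in the sorted cells. PTAFR, the receptor for platelet-activating factor, had 17.2 TPM against 3.24 and 1.88 TPM (2.35). SLC11A1, a metal transporter of phagosomes, had 23.2 TPM against 5.21 and 3.87 TPM (2.13).

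Of the 27 genes of the macrophage and myeloid list, 23 were included, 20 lay above both whole-tissue values, 3 between them and 0 below. Against the background of 5.00% of all genes and 2.60% of named genes, 15 of the 23 were called higher, with a list median of 1.39, or 1.94 relative to all genes. Summed over the list the level was 5057 TPM in the sorted cells, 972 TPM in the male tissue and 622 TPM in the female tissue. Of the 23 genes 4 were included only through their level in the sorted cells, and of the 19 others 13 were called higher. The library labelled as epithelial cells thus had more of these macrophage marker transcripts per total than whole tissue, and is called the sorted cells throughout. The remaining 4 markers, AIF1, CD68, ITGAM and TYROBP, had no ID at hand and were not analysed here. Not all genes of the list differed this far. The complement receptor C3AR1 had 1.28 TPM against 1.65 and 0.939 TPM and the engulfment receptor MERTK 8.49 TPM against 8.73 and 6.50 TPM, and neither lay outside both whole-tissue values. CX3CR1, the fractalkine receptor, had 11.7 TPM against 8.37 and 5.44 TPM (0.68), above both but under 2-fold.

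Of the 11 genes on the list of lymphocyte and other leukocyte markers, 7 were included. Among these 5 were called higher and 0 lower, against 5.00% and 22.4% of all genes. The list median was 1.14, or 1.68 relative to all genes. Of the 6 that reached 0.5 TPM in both whole tissues 4 were called higher. CCRL2, a chemokine-binding receptor, had the highest ratio of all named genes at 3.97, with 30.5 TPM in the sorted cells, 1.14 TPM in the male tissue and 0.875 TPM in the female tissue. GPR171 had 17.4 TPM against 1.17 and 0.768 TPM (3.23), and CXCR4, the receptor for the chemokine CXCL12, 24.6 TPM against 2.68 and 3.01 TPM (2.73). CCR10 was the 1 gene below both whole tissues, with 0.277 TPM against 1.33 and 0.576 TPM. PTPRC, CD3E and CD79A, which define leukocytes, T cells and B cells, had no ID at hand, and CXCR3 was under the level for inclusion, with 0.340 TPM in the sorted cells as deposited. The part of leukocyte RNA in the ratios of other genes was not tested. Among the 15 named genes with the highest ratio, 10 were in the leukocyte lists. The other 5 were RT1-DA, APOE, GDF15, TMSB4X and RPS19L2, the last a ribosomal protein gene with near-identical copies and so uncertain.

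**Figure D2:**
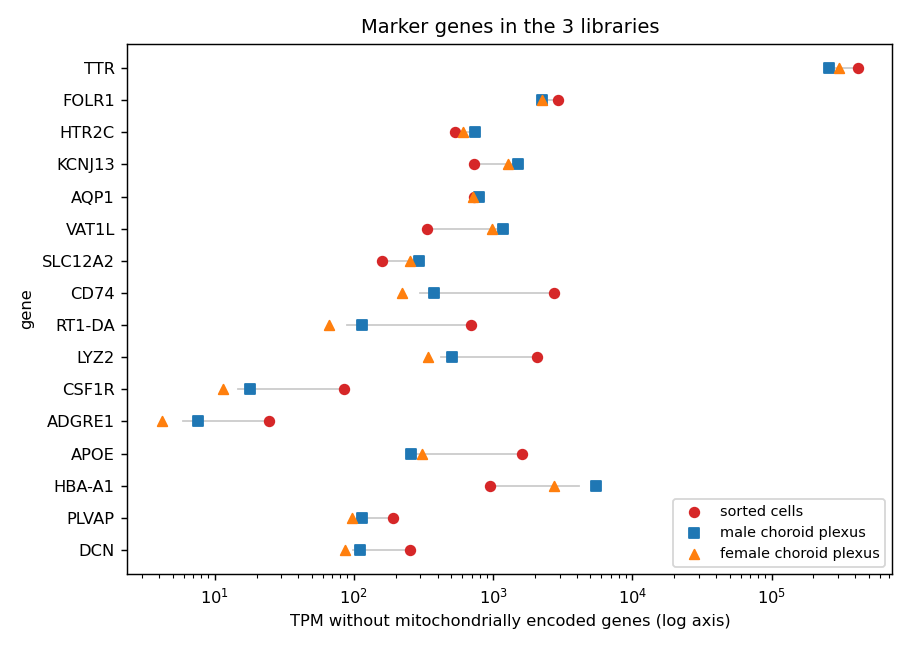
TPM without mitochondrially encoded genes (x axis, log scale) of 16 marker genes in the sorted cells (red circles), the male (blue squares) and the female choroid plexus (orange triangles), with grey lines from the sorted value to the whole-tissue mean. The macrophage and MHC class II genes CD74, RT1-DA, LYZ2, CSF1R and ADGRE1 lie to the right in the sorted cells, the haemoglobin gene HBA-A1 and the epithelial gene VAT1L to the left, and AQP1 and HTR2C close together.

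Haemoglobin transcripts, in contrast, were lower in the sorted cells. HBA-A1 had 945 TPM in the sorted cells, 5507 TPM in the male tissue and 2723 TPM in the female tissue, so that the whole-tissue mean was 4.35-fold the sorted value. All 4 included genes of the erythrocyte list, which are haemoglobin genes, were called lower, against 22.4% of all genes. Their log2 ratios lay between -2.20 and -1.73. The genes are near-identical copies, and the split of reads among them is uncertain. ALAS2 of this list had no ID at hand, and SLC4A1, the anion exchanger of red cells, was under the level for inclusion. The haemoglobin genes also differed between the whole tissues, with a median log2 ratio of -0.99 for the female over the male.

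Vascular and stromal genes were close to whole tissue in TPM and above the median of all genes. The endothelial list had a median of 0.09 over 18 genes, the fibroblast and stromal matrix list 0.11 over 21 and the mural list 0.02 over 8. Relative to all genes these were 0.63, 0.65 and 0.56. In the same order 0, 1 and 0 genes were called higher and 1, 2 and 0 lower, against 5.00% and 22.4% of all genes. PLVAP, which forms the diaphragms of fenestrated capillaries, had 189.6 TPM against 114 and 97.0 TPM (0.84), and the angiopoietin receptor relative TIE1 had 25.1 TPM against 17.3 and 17.6 TPM (0.50). Decorin (DCN), a collagen-binding proteoglycan of fibroblasts, had 255 TPM against 111 and 86.7 TPM and was the 1 gene of the 3 lists called higher (1.36). Matrix Gla protein (MGP) had 1134 TPM against 594 and 626 TPM (0.89). Other genes of these lists were lower. The stromal genes for the collagen receptor DDR2 (-1.10), the microfibril protein MFAP4 (-1.03) and the endothelial apelin receptor APLNR (3.56 TPM against 8.63 and 7.66 TPM) were called lower, and RGS5, a marker of pericytes, had 71.9 TPM against 153 and 105 TPM. Of the endothelial list PECAM1, CDH5, CLDN5 and VWF, of the stromal list COL1A1, COL1A2, COL3A1 and LUM, and of the mural list ACTA2 and TAGLN had no ID at hand.

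Genes of astrocytes and neurons, cells of the adjoining brain, were mostly low in all libraries, and the shares of them that were below whole tissue were near those of all genes. Of 18 genes, 14 lay below both whole-tissue values and 5 were called lower, against 72.6% and 22.4% of all genes, and the list median was -0.74, or -0.19 relative to all genes. GABRG3, a GABA receptor subunit, had 0.171 TPM against 6.58 and 4.10 TPM (-2.44), and KCNA1, an axonal potassium channel, 3.28 TPM against 19.3 and 12.1 TPM (-1.96). NSG2 (497 TPM against 622 and 571 TPM) and RELN (40.6 TPM against 97.6 and 67.3 TPM), listed as neuronal, were the highest of the list in all 3 libraries. They encode a vesicle protein and the secreted reelin. Most of the 571 TPM summed over the list in the sorted cells was NSG2, and which cells carry it was not tested. The astrocytic genes KCNJ10 and SLC1A2 were listed at 0 in the sorted cells and were under 1 TPM in whole tissue. GFAP and SNAP25 had no ID at hand.

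**Figure D3:**
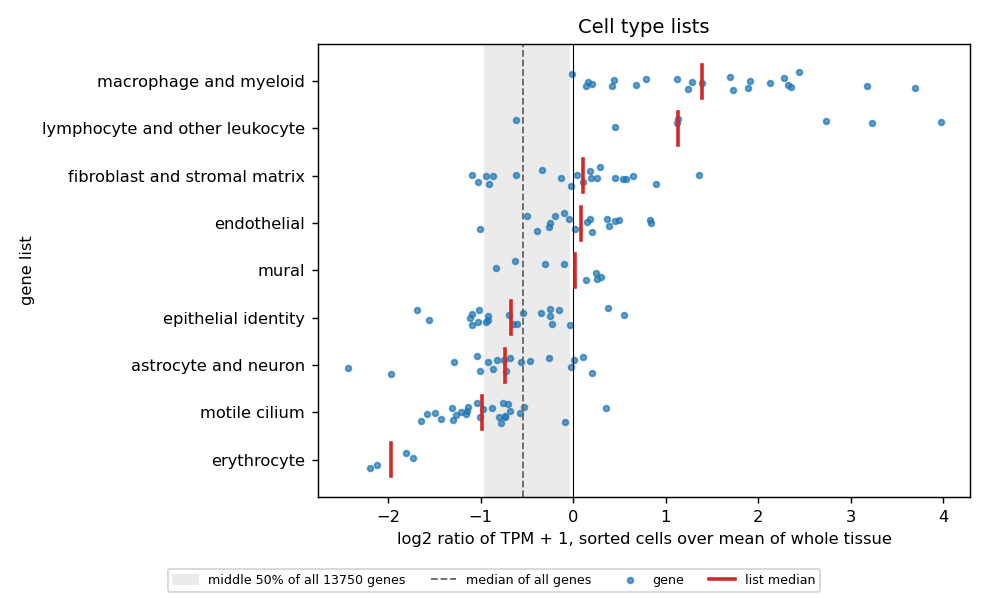
Log2 ratio of TPM + 1, sorted cells over the whole-tissue mean (x axis), of each gene (blue points) in 9 cell type lists (y axis), with list medians in red, the median of all genes dashed and their middle 50% shaded. The macrophage list is centred at 1.39, the motile cilium list at -0.99 and the erythrocyte list at -1.96.

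As a list, cilium genes were lower in the sorted cells by more than the median of all genes. RSPH4A, a radial spoke protein of motile cilia, had 31.9 TPM in the sorted cells, 108 TPM in the male tissue and 95.6 TPM in the female tissue (-1.65). TTC30B, a part of the intraflagellar transport train, had 22.4 TPM against 71.5 and 66.5 TPM (-1.58). In both genes the whole tissues were close together and the sorted value lay well below both. Over the list, 24 of 26 genes lay below both whole-tissue values and 13 were called lower, against 72.6% and 22.4% of all genes. The median was -0.99, or -0.44 relative to all genes. Once centred on the median of all genes, 2 of 26 were called lower, against 5.13% of all genes. The radial spoke gene RSPH9 stood apart, with 335 TPM against 252 and 269 TPM (0.36).

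Junction and polarity genes split. Beta-catenin (CTNNB1) had 67.6 TPM against 194 and 163 TPM (-1.39) and ezrin (EZR), the linker of microvilli to actin, 328 TPM against 728 and 672 TPM (-1.09), and both were called lower. Claudin 2 (CLDN2), the pore-forming claudin of this epithelium, had 702 TPM against 873 and 794 TPM (-0.25), and P-cadherin (CDH3) 85.5 TPM against 81.3 and 78.9 TPM. The median over 10 genes was -0.50, near that of all genes, and 2 of the 10 were called lower, against 22.4% of all genes.

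The subunits of the pump that drives secretion were within 2-fold of whole tissue. ATP1B1, the most abundant beta subunit of the Na+/K+-ATPase here, had 1161 TPM against 1695 and 1494 TPM (-0.46), and FXYD1, a regulator of the pump, 889 TPM against 1174 and 1161 TPM (-0.39). The 6 subunit genes had a median of -0.14. None of them was called in either direction, against 5.00% of all genes called higher and 22.4% lower. Nor was any of the 5 cation chloride cotransporters, among which SLC12A4 had 244 TPM against 209 and 201 TPM and SLC12A9 27.4 TPM against 17.2 and 15.5 TPM. Lists of 6 and 5 genes are too short to set these counts apart from the shares of all genes. On the centred scale both lists lay above the median of all genes, by 0.40 and 0.39, and the direction therefore depended on the scale.

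Bicarbonate handling had the lowest median of the functional lists. Carbonic anhydrase 2 (CAR2), the cytosolic enzyme that forms bicarbonate, had 432 TPM in the sorted cells, 1673 TPM in the male tissue and 1552 TPM in the female tissue (-1.90). SLC4A10, the basolateral Na+-dependent bicarbonate importer NBCn2, had 115 TPM against 355 and 298 TPM (-1.50), and SLC4A5, the apical Na+-bicarbonate cotransporter NBCe2, 335 TPM against 962 and 761 TPM (-1.36). In the 3 genes the whole-tissue mean was 3.74-, 2.84- and 2.57-fold the sorted value. CA13, another cytosolic carbonic anhydrase, had 14.8 TPM against 109.5 and 81.4 TPM (-2.61), CA12, a membrane-bound one, 263 TPM against 683 and 526 TPM (-1.20), and SLC4A7 1.10 TPM against 10.4 and 7.15 TPM (-2.22). Of 12 genes, 7 were called lower and 0 higher, against 22.4% and 5.00% of all genes. The median was -1.27, or -0.73 relative to all genes. Once centred, 3 of 12 were called lower, against 5.13% of all genes. SLC4A2, the anion exchanger AE2, did not follow, with 684 TPM against 697 and 632 TPM, and neither did the membrane-bound CA14, with 341 TPM against 323 and 298 TPM. The group thus held genes at high levels in all 3 libraries that differed by more than 2-fold and others that did not.

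Among the 20 transporters and pumps with the highest TPM in the male choroid plexus, 4 were called lower and 0 higher, against 23.2% and 2.60% of named genes, so that the share called lower was near the background. Among those called lower were SLC4A5, SLC4A10 and the calcium pump ATP2B3 (174 TPM against 432 and 306 TPM, -1.08). SLC22A17, the highest of the list, had 2815 TPM in the sorted cells, 2614 TPM in the male tissue and 2643 TPM in the female tissue, and so differed little. Over the 215 included genes of the study's list of transporters and pumps, 6 were called higher and 25 lower, against 2.60% and 23.2% of named genes. The median was -0.27. Of these genes 4 were included only through the sorted cells, and of the 211 others 5 were called higher, with a median of -0.29. The 6 genes called higher were SLC11A1, the fructose transporter SLC2A5 (3.82 TPM against 0.797 and 0.277 TPM), SLC9A9, ABCA7 (36.8 TPM against 17.3 and 14.8 TPM), SLCO2B1 and SLC28A2. SLC2A5 was included only through the sorted cells. Among those called lower were the phosphate exporter XPR1 (17.2 TPM against 55.2 and 40.1 TPM, -1.42), the copper pump ATP7A (3.43 TPM against 15.3 and 10.2 TPM, -1.63) and the zinc exporter SLC30A1 (13.5 TPM against 37.9 and 32.2 TPM, -1.32).

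Other carriers stayed near the whole-tissue values or near the median of all genes. The list of organic ion, thyroid hormone and folate carriers had a median of -0.11 over 18 genes, and lay 0.43 above all genes once centred. Of its genes 1 was called higher and 2 lower, against 5.00% and 22.4% of all genes. SLCO1C1, a carrier of thyroxine, had 229.8 TPM against 329 and 296 TPM and SLC19A1, the reduced folate carrier, 126 TPM against 139 and 128 TPM. Metal transporters had a median of -0.46 over 28 genes, or 0.09 relative to all genes. Among them 0 were called higher and 3 lower, against 5.00% and 22.4% of all genes, so the share called lower was below the background. The copper importer SLC31A1 had 267 TPM against 512 and 434 TPM (-0.82).

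Of the 20 channels with the highest TPM in the male choroid plexus, 5 were called lower and 0 higher, against 23.2% and 2.60% of named genes, so that the share called lower was near the background. The largest difference was in KCNJ14, the inwardly rectifying channel Kir2.4, with 1.93 TPM in the sorted cells, 33.4 TPM in the male tissue and 31.4 TPM in the female tissue, from 115, 1842 and 1737 expected counts. TRPM3, a steroid- and heat-gated cation channel, had 33.4 TPM against 149.8 and 101 TPM (-1.88), and TRPM7, a channel fused to a kinase, 9.58 TPM against 33.3 and 24.3 TPM (-1.49). The endosomal chloride exchanger CLCN3 had 13.5 TPM against 36.9 and 30.8 TPM (-1.26), and KCNA1 is given above. The other channels of secretion differed less. KCNK1 had 124 TPM against 172 and 148 TPM, KCNQ1 24.7 TPM against 32.8 and 30.7 TPM and KCNE2, its auxiliary subunit in this tissue, 662 TPM against 772 and 799.6 TPM. TRPV4, an osmosensitive calcium channel, had 79.0 TPM against 100.5 and 85.7 TPM. Over the 85 included genes of the study's list of channels, 6 were called higher and 9 lower, against 2.60% and 23.2% of named genes. The median was -0.11. Of these genes 6 were included only through the sorted cells, and of the 79 others 3 were called higher, with a median of -0.22. Among 31 potassium channel genes the median was -0.23, or 0.32 relative to all genes. Of them 2 were called higher and 2 lower, against 2.60% and 23.2% of named genes. Those called higher, KCNJ2 (3.18 TPM against 1.08 and 0.470 TPM) and KCNK13 (3.63 TPM against 0.960 and 0.854 TPM), were low throughout, and 1 of them was included only through the sorted cells.

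Most G protein-coupled receptors called higher in the sorted cells were also in the leukocyte lists. Of the 105 included genes of the study's list of G protein-coupled receptors, 19 were called higher, against 2.60% of named genes. Of the 105 genes 10 were included only through their level in the sorted cells, and of the 95 others 16 were called higher, with a median of -0.04 in place of 0.10. Of the 19 genes, 16 were in the leukocyte lists above, where they make up 16 of the 20 genes called. Those lists were drawn mostly from names at hand, which include the study's receptor list, and with earlier results of these data known. The overlap was thus partly set by how the lists were made and is no independent support. The other 3 were S1PR3, a sphingosine 1-phosphate receptor (21.0 TPM against 11.1 and 7.79 TPM), ADORA2A, an adenosine receptor (5.75 TPM against 2.36 and 2.03 TPM), and GPR160 (3.86 TPM against 1.88 and 0.896 TPM). Called lower were 6 of the 105, against 23.2% of named genes. The endothelin receptor EDNRB led these, with 39.3 TPM in the sorted cells, 164 TPM in the male tissue and 102 TPM in the female tissue (-1.74). The purinergic receptor P2RY4 had 1.61 TPM against 6.49 and 3.93 TPM and the Wnt receptor FZD7 17.3 TPM against 39.1 and 37.3 TPM. Among 14 receptors linked to secretion, in which EDNRB and ADORA2A count too, 1 was called higher and 2 lower. The median was 0.13, or 0.67 relative to all genes, and the shares of named genes were 2.60% and 23.2%. CRHR2, a receptor for urocortins, had 32.6 TPM against 30.8 and 26.6 TPM and the GABA-B subunit GABBR1 46.6 TPM against 34.9 and 39.4 TPM. Frizzled receptors and their partners had a median of -0.51 over 13 genes, near all genes, with 2 called lower, against 23.2% of named genes. Of 39 receptor tyrosine kinases 2 were called higher and 3 lower, against 2.60% and 23.2% of named genes. Those higher were CSF1R and EPHA2 (6.58 TPM against 3.18 and 1.95 TPM). Those lower were IGF1R (2.69 TPM against 10.8 and 8.01 TPM), INSR (10.6 TPM against 26.4 and 22.4 TPM) and DDR2.

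**Figure D4:**
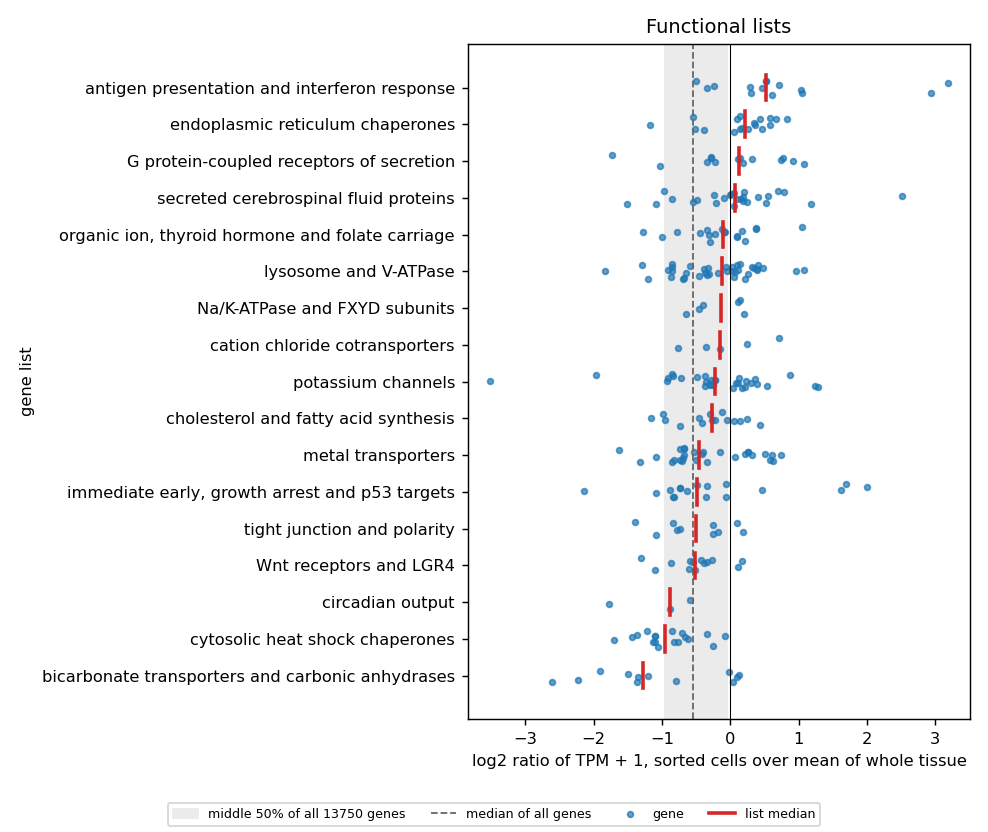
Log2 ratio of TPM + 1, sorted cells over the whole-tissue mean (x axis), of each gene (blue points) in 17 functional lists (y axis), with list medians in red, the median of all genes dashed and their middle 50% shaded. Antigen presentation genes have the highest median (0.52) and bicarbonate genes the lowest (-1.27), and cytosolic and endoplasmic reticulum chaperones lie on opposite sides of the dashed line.

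Transcripts of secreted proteins were on balance level with whole tissue in TPM, while most genes were lower. Prostaglandin D synthase (PTGDS) had 11029 TPM in the sorted cells, 6771 TPM in the male tissue and 6821 TPM in the female tissue (0.70), and the growth factor midkine (MDK) 9832 TPM against 5292 and 6070.4 TPM (0.79). Cystatin C (CST3) had 47605 TPM against 36462 and 46763 TPM, and the iron carrier transferrin (TF) 7938 TPM against 6496 and 5523 TPM. Apolipoprotein E (APOE), a lipid carrier that macrophages also make, differed most, with 1622 TPM against 257 and 309.7 TPM, 5.72-fold. Over the 26 genes the median was 0.08, or 0.62 relative to all genes. Of them 13 lay above both whole tissues, 2 were called higher and 2 lower, against 19.9%, 5.00% and 22.4% of all genes. The other gene called higher was SERPINE2, a protease inhibitor (441 TPM against 219 and 169 TPM), and those lower were the protease trap A2M (99.9 TPM against 269 and 301 TPM) and ENPP2, the enzyme autotaxin (3239 TPM against 7698 and 6066 TPM).

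Lysosomal genes differed among themselves. The cathepsins CTSZ (172 TPM against 80.4 and 80.5 TPM, 1.09) and CTSH (274 TPM against 146 and 134 TPM, 0.97) had the highest ratios of the 38 genes, while subunits of the peripheral domain of the proton pump had the lowest, with ATP6V1A at 55.4 TPM against 226 and 176 TPM (-1.84), ATP6V1B2 at -1.29 and ATP6V1C1 at -1.21. The list median was -0.12, or 0.43 relative to all genes. Of the 38 genes 1 was called higher and 3 lower, against 5.00% and 22.4% of all genes, so the share called lower was below the background. Genes of cholesterol and fatty acid synthesis had a median of -0.27 over 15, or 0.27 relative to all genes, and only the elongase ELOVL7 was called, at 149 TPM against 379 and 289.8 TPM.

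Among antigen presentation genes the highest ratios were those of MHC class II. RT1-DA, a class II alpha chain, had 692 TPM in the sorted cells, 113 TPM in the male tissue and 65.8 TPM in the female tissue, 7.72-fold, in parallel to CD74. Class I genes differed by less than 2-fold and did not share a direction. RT1-A1 had 323 TPM against 287 and 243 TPM, and the class I light chain B2M 1022 TPM against 808 and 679 TPM. RT1-S3 had a log2 ratio of 0.53 and RT1-CE7 a log2 ratio of -0.50. The antiviral membrane proteins BST2 (536 TPM against 287 and 231 TPM, 1.05) and IFITM3 (188 TPM against 102 and 80.2 TPM, 1.04) passed 2-fold. Of 14 genes 4 were called higher and 0 lower, against 5.00% and 22.4% of all genes. The median was 0.52, or 1.07 relative to all genes. CD74 counts in this list and in that of macrophages.

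Listed chaperones differed by compartment, in lists drawn mostly from names at hand that do not hold all chaperones. Those of the cytosol were lower, with 18 of 18 below both whole tissues and 9 called lower, against 72.6% and 22.4% of all genes. Their median was -0.96, or -0.41 relative to all genes. Once centred, 1 of 18 was called lower, against 5.13% of all genes. HSPA4L, of the HSP110 family, had 17.1 TPM in the sorted cells, 65.4 TPM in the male tissue and 50.2 TPM in the female tissue (-1.70). HSPH1, a nucleotide exchange factor for HSP70, had 36.3 TPM against 109.8 and 79.6 TPM (-1.36), and the small heat shock proteins HSPB6 and HSPB8 had 52.1 TPM against 135 and 109 TPM and 69.9 TPM against 159.7 and 141 TPM. The abundant HSPA8 (555 TPM against 953 and 755 TPM) and HSP90AB1 (589.9 TPM against 825 and 664 TPM) were lower by less. Chaperones of the endoplasmic reticulum were higher relative to all genes, at 0.76, and near whole tissue in TPM, at 0.21. The calcium-binding lectin calreticulin (CALR) had 1230.5 TPM in the sorted cells, 891 TPM in the male tissue and 662 TPM in the female tissue (0.66), and HSPA5, the HSP70 of that compartment, 875 TPM against 766 and 521 TPM (0.44). The co-chaperone SDF2L1 had 231 TPM against 154 and 156 TPM (0.58). Of 18 genes 10 lay above both whole tissues and 0 were called higher, against 19.9% and 5.00% of all genes. SERP1 alone was called lower (-1.17).

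As most members of a compartment lay on the same side of the median of all genes (3 of 18 cytosolic and 17 of 18 endoplasmic reticulum genes lay above it), the 150 bases before the gene start are shown for 3 genes of each and for RT1-DA, taken from RefSeq (build GRCr8) and written 5′ to 3′ on the strand of the gene, with matches to GAANNTTC or CCAAT on either strand in capitals. GAANNTTC is a pair of the repeats of a heat shock element and reads the same on both strands, and CCAAT, marked also where it lies on the other strand, is the box bound by NF-Y and is part of the endoplasmic reticulum stress element.
HSPH1 (chr12:10427218-10427367, plus strand): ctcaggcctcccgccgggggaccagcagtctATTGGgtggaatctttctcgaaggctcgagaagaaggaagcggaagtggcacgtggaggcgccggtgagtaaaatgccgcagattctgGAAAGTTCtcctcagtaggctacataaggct
HSPB6 (chr1:94934222-94934371, plus strand): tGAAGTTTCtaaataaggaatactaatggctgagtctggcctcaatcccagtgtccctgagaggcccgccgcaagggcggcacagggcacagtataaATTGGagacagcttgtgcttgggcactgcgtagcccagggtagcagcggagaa
HSPB8 (chr12:45837158-45837307, plus strand): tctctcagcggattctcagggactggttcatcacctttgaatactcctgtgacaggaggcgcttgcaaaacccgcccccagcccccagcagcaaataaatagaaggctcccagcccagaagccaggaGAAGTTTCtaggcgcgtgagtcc
CALR (chr19:40213217-40213366, plus strand): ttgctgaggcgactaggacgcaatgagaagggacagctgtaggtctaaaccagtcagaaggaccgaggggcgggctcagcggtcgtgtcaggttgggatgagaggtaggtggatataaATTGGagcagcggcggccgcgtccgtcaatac
SDF2L1 (chr11:97376728-97376877, plus strand): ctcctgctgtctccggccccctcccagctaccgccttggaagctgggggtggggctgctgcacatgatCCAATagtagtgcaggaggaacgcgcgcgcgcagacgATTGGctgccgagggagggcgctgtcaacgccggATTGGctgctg
HSPA5 (chr3:38452866-38453015, plus strand): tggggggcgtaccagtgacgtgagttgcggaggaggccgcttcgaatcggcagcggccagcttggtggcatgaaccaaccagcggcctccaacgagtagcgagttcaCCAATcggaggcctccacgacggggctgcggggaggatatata
RT1-DA (chr20:4515265-4515414, plus strand): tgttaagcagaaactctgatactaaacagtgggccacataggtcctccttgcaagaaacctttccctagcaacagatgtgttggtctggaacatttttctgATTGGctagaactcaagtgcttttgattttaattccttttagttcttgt

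The 3 cytosolic genes were chosen as genes called lower with GAANNTTC in this stretch, the 3 others as the highest ratios of their list among matched genes with CCAAT in it, and RT1-DA as the class II gene with a name. Over the 250 bases before the start, 7 of 15 matched cytosolic chaperone genes held GAANNTTC, against 1 of 15 of the endoplasmic reticulum and 6.94% of 24206 promoters. Within the cytosolic list the motif did not follow the ratio. HSPA4L (-1.70) and HSPA4 (-1.43), the lowest of the list, held 0 matches, and HSPA8 (-0.62) and HSPB1 (-0.08), not called, held 2 each. CCAAT was found in 14 of 15 genes of the endoplasmic reticulum and 8 of 15 of the cytosol, against 34.4% of all promoters. In the antigen presentation list 3 of 11 matched genes held GAANNTTC and 7 of 11 CCAAT. RT1-DA had 1 GAANNTTC match in the 250 bases, not within the stretch shown. Matches of the 2 motifs overlapped in 27 promoters. Such matches are descriptions of these letters and were not tested as sites.

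The listed immediate early, growth arrest and p53 target genes did not share a direction. GDF15, a stress-induced cytokine, had 414 TPM in the sorted cells, 101 TPM in the male tissue and 103.4 TPM in the female tissue (2.01), the AP-1 factor JUND 446 TPM against 129.6 and 143 TPM (1.70) and the GTPase RHOB 188 TPM against 67.1 and 53.2 TPM (1.63), and these 3 were called higher. The p53 targets CDKN1A (162 TPM against 301 and 269.5 TPM) and MDM2 (50.9 TPM against 73.3 and 70.4 TPM) were below both whole tissues, and SFN (13.4 TPM against 67.9 and 57.0 TPM, -2.14) and CCNG1 (-1.09) were called lower. Of the 17 genes 3 were called higher and 2 lower, against 5.00% and 22.4% of all genes. Their median was -0.49, near that of all genes. FOS, JUN and EGR1, the usual markers of tissue digestion, had no name in the lists used. They may be among the IDs without a name, so their direction is not known here. Of the clock outputs, DBP had 63.7 TPM in the sorted cells, 189 TPM in the male tissue and 251 TPM in the female tissue (-1.77), and USP2 and NR1D1 were lower by less, with a median of -0.88 over the 3 genes. The hour of collection is not given in the sources used here.

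Nuclear genes of oxidative phosphorylation lay below whole tissue nearly throughout, by less than 2-fold for most. Of 76 genes 73 lay below both whole-tissue values, 20 were called lower, a share near that of all genes, and 0 higher, against 72.6%, 22.4% and 5.00% of all genes, with a median of -0.83, or -0.29 relative to all genes. The medians of complexes I to V were -0.74 (34 genes), -0.96 (4), -0.87 (8), -0.96 (12) and -0.95 (17). ATP5F1A, a catalytic subunit of ATP synthase, had 401 TPM in the sorted cells, 1021 TPM in the male tissue and 955 TPM in the female tissue, and SDHA of complex II 82.3 TPM against 235 and 212 TPM. Cytosolic ribosomal protein genes had a median of -0.09 over 78 genes, or 0.45 relative to all genes. Among the 78 genes 2 were called higher and 7 lower, against 5.00% and 22.4% of all genes. Some of these values rest on few or no counts and on very short effective lengths. RPS6, a gene all cells use, was listed at 0 in the sorted cells and had 585 and 492 TPM in whole tissue, and so no fold is given. RPL38, whose effective length was 3.72 and 3.56 bases in the whole-tissue libraries, and ROMO1 were listed at 0 too, as was PCSK1N. In all 19 genes at 100 or more expected counts in both whole tissues were listed at 0 in the sorted cells, and 73 of the 13750 IDs had the same TPM as another ID in all 3 libraries. Beside such genes and KCNJ14, the 15 named genes with the lowest ratios held LRRC58, a leucine-rich repeat protein with 21.7 TPM against 175 and 127 TPM (-2.74).

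The ratio varied with gene length. Effective length is the number of positions a fragment can start from in a transcript, and it was 17.1 and 13.7 bases shorter in the sorted cells than in the male and female libraries (medians over 10698 genes of 1000 bases or more). The share of genes called higher fell from 13.7% below 300 bases to 1.14% at 5000 bases or more, and the median log2 ratio went from -0.45 to -0.72. Across the 13750 genes, which are not independent replicates, Spearman's rho of log2 ratio and effective length was -0.12, and -0.34 for the female over the male library. The relation with length was thus larger between the whole tissues, and its part in the ratios of single lists was not tested.

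**Figure D5:**
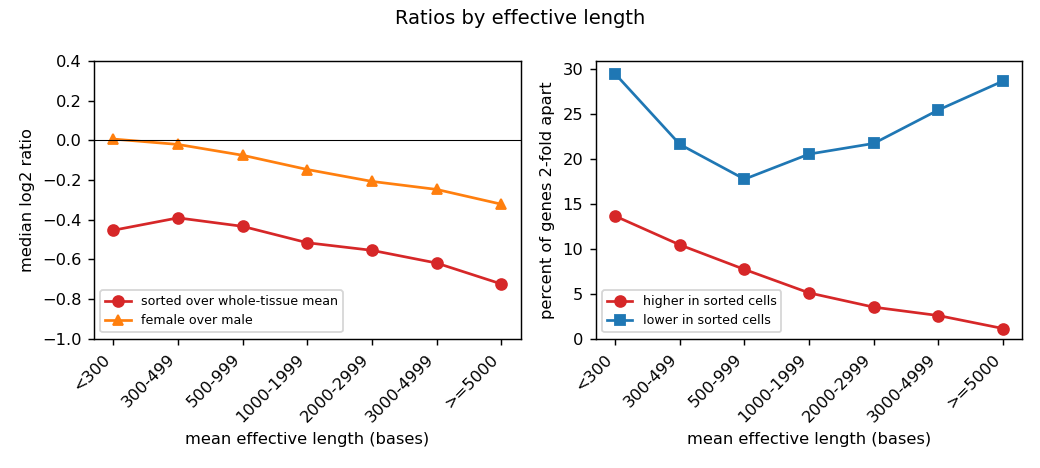
Median log2 ratio (left) and percent of genes called 2-fold apart (right) by mean effective length in bases (x axis), for sorted cells over the whole-tissue mean (red), the female over the male whole tissue (orange) and genes lower in the sorted cells (blue, right). The share called higher falls from 13.7% to 1.14% with length, and that called lower lies between 17.8% and 29.5%.

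The largest ratios were in genes without a name at hand. ENSRNOG00000002792 had 227 TPM in the sorted cells, 0.0546 TPM in the male tissue and 0 TPM in the female tissue. It was included only through the sorted cells. ENSRNOG00000008015 had 687, 5.14 and 1.18 TPM. Of the 90 genes called higher with 100 TPM or more in the sorted cells, 62 had no name. Which cells these transcripts mark was not analysed here. In the other direction ENSRNOG00000050660 and ENSRNOG00000027079 were listed at 0 in the sorted cells, against 39.3 and 36.5 TPM and 31.0 and 31.8 TPM in whole tissue.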

How the data were processed

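RNA was sequenced in 4 libraries of the series, of which the 3 from choroid plexus were used here: cells sorted by FACS, and male and female whole tissue, 1 pooled library each. Per the submitters' processing notes, STAR 2.7.2a and RSEM 1.3.3 served the authors to map reads on Rnor_6.0 and to quantify genes. They deposited an expected count per gene, which is an estimate, the TPM, an effective length and the FPKM, and the deposited FPKM was not used. The library kit's use of strand is not given in the sources used here, so antisense and overlapping genes are uncertain.

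From the deposited TPM the 13 genes named as mitochondrially encoded were removed and each library rescaled to the same total. Genes at 0.5 TPM or above in the sorted cells or in both whole-tissue libraries entered, a pseudocount of 1 was added, and log2 ratios were taken against the whole-tissue mean. A gene was called at 2-fold where the sorted value lay outside both whole-tissue values. With 1 library per group there was no test. Names were taken from the study's supplementary lists and matched 2402 of the 32883 IDs. Promoters came from RefSeq (GRCr8), and genes with more than 1 promoter entry were left out. Shares carry 95% Wilson intervals, with a floor of 3 counts. Python 3.11.15, numpy 2.4.6, pandas 2.3.3, scipy 1.17.1 and matplotlib 3.10.9 were used, and the ratio step was tested on simulated data. The members, lists and rules were chosen with earlier results of these data known. Named in the text are genes of the lists, the 20 highest transporters and channels of the male choroid plexus, the 15 named genes with the highest and lowest ratios at 10 expected counts or more, the 10 named genes highest in the sorted cells and up to 2 IDs without a name in each direction. Further genes named from the study's lists of transporters, receptors and kinases were chosen after their values were seen, as were the promoters shown. Alternatives changed the whole-tissue library, the pseudocount, the cut-off, the scaling and the fold. Some genes are not reported here.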

Additional observations from a re-analysis of the deposited data

How the results depend on the processing

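All results come from 1 library per group, and no value has an error from replicates. No paired analysis was possible because there was 1 library per group and no shared replicate number. Alternatives were set against the difference between the whole-tissue libraries, and of 357 values under 14 alternatives 300 stayed within it or, for counts of genes, within 1.5 times. Genes called higher and lower numbered 687 and 3075. After centring on the median they were 1518 and 705, without the 10 highest genes of each library 1219 and 1591, outside both values at any fold 2735 and 9985, and at 4-fold 212 and 224. With a pseudocount of 0.1, 1054 genes were called higher. The shift of all genes was -0.54, -0.23 without the 10 highest genes, and 0 with no filter, where most IDs are at 0 in all libraries. With no filter Spearman's rho of ratio and length was -0.38. List medians below are relative to all genes. Against the male choroid plexus alone the median was -0.33 for the motile cilium list. Against the female alone the median was -0.53 for the motile cilium list and 0.32 for the cytosolic ribosomal proteins list. A pseudocount of 0.1 gave 2.41 for the macrophage and myeloid list, 2.67 for the lymphocyte and other leukocyte list, -0.38 for the astrocyte and neuron list and 0.54 for the cytosolic ribosomal proteins list. A pseudocount of 0.5 gave 2.09 for the lymphocyte and other leukocyte list and -0.34 for the astrocyte and neuron list. A cut-off of 1 TPM gave 2.52 for the lymphocyte and other leukocyte list. A cut-off of 5 TPM gave 2.55 for the macrophage and myeloid list, 3.62 for the lymphocyte and other leukocyte list, -0.35 for the motile cilium list and 0.54 for the cytosolic ribosomal proteins list. Removal of the 10 highest genes gave 1.95 for the lymphocyte and other leukocyte list, -0.35 for the astrocyte and neuron list and 0.52 for the cytosolic ribosomal proteins list. With genes of at least 300 bases of effective length in all 3 libraries, an alternative chosen after seeing the data, the median was 0.66 for the Na/K-ATPase and FXYD subunits list. With no filter the median of all IDs is 0, and medians that had lain above all genes turned below it for 7 lists. They were -0.14 for Na/K-ATPase and FXYD subunits, -0.21 for cation chloride cotransporters, -0.11 for organic ion, thyroid hormone and folate carriage, -0.23 for potassium channels, -0.12 for lysosome and V-ATPase and -0.27 for cholesterol and fatty acid synthesis. They were also -0.0946 for cytosolic ribosomal proteins. Without a turn they became -0.67 for epithelial identity, 1.39 for macrophage and myeloid, 1.13 for lymphocyte and other leukocyte, 0.0255 for endothelial, 0.11 for fibroblast and stromal matrix and 0.0201 for mural. Others became -0.74 for astrocyte and neuron, -0.99 for motile cilium, -1.20 for bicarbonate transporters and carbonic anhydrases, -0.46 for metal transporters, 0.0765 for secreted cerebrospinal fluid proteins and -0.50 for tight junction and polarity. Further medians were 0.52 for antigen presentation and interferon response, -0.96 for cytosolic heat shock chaperones, 0.21 for endoplasmic reticulum chaperones, -0.49 for immediate early, growth arrest and p53 targets, -0.88 for circadian output and 0.13 for G protein-coupled receptors of secretion. The last were -0.51 for Wnt receptors and LGR4 and -0.83 for nuclear oxidative phosphorylation. The macrophage, leukocyte and antigen presentation lists lay above the median of all genes and the cilium, bicarbonate, cytosolic chaperone and erythrocyte lists below it under each alternative that gives list medians, with 1.39 to 2.55 for macrophages and -1.20 to -0.58 for bicarbonate genes. Short genes, near-identical copies and genes listed at 0 limit single values, and genes without a name and the kidney library were not analysed here.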
